A study of Caenorhabditis elegans with 18 samples.

Results

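The response of numr-1/2(RNAi) worms to cadmium was taken from 6 of the 18 libraries of the series, chosen by their labels: 3 from numr-1/2(RNAi) worms on agar with 300 µM cadmium for 12 h and 3 from numr-1/2(RNAi) worms on agar without cadmium. All worms were wild-type N2 Caenorhabditis elegans fed dsRNA-expressing bacteria from the L1 larva, moved at the late L3 stage to new RNAi plates with or without cadmium, and harvested whole as late L4 to young adult animals. The worms in the comparison groups, control(RNAi) with and without cadmium (3 libraries each), ate bacteria with the empty feeding vector and were otherwise handled the same way, and the 6 ints-4(RNAi) libraries were not used here. RNAi by feeding lowers a transcript in many tissues and does not delete the gene, and each library was oligo(dT)-primed RNA of a whole-worm population, in which fewer cells of a type and less RNA per cell cannot be told apart. The libraries of a group were biological replicates, as the methods of the study state.

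Cadmium is a toxic metal that binds thiols and competes with zinc. In worms it is known to induce metallothioneins (small cysteine-rich metal chelators), the lysosomal cdr proteins, glutathione and phytochelatin synthesis, transporters and chaperones of the heat shock response, mostly in the intestine. The numr-1/2 genes are a pair of neighbors with the same sequence, induced by metals, that encode nuclear proteins resembling the SR proteins of splicing. The comparison asks what cadmium did to gene expression and splicing in worms in which this pair was targeted, and where that differed from the cadmium response of control(RNAi) worms.

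The group values deposited for each gene are means of 3 normalized libraries, and the whole reads behind them could be recovered for every gene in the libraries without cadmium (35701301 to 36636795 reads per numr-1/2(RNAi) library) and for 98.9% of the genes above 0 in numr-1/2(RNAi) with cadmium (19870466 to 22349015 reads per library). The 249 genes without a unique solution are mostly those with the most reads and hold 41.3% of that group's summed value, so for them only the group value is given and no test. Values below are these normalized reads, always in the order of the recovered libraries, whose replicate numbers 1 to 3 here are not the replicate numbers of the labels. Levels of numr-1/2(RNAi) and control(RNAi) come from tables that the authors normalized separately. The numr-1/2(RNAi) libraries correlated at 0.985 to 0.989 within their group and at 0.986 to 0.991 within the cadmium group, across genes on the log scale, and at 0.930 to 0.942 between the 2 groups. In control(RNAi) with cadmium, 1 library stood apart (0.960 to 0.963 with the other two, and 17002 genes with reads against 19327 and 19366), so differences from the control response are also given without it.

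Marker genes of the germline, epidermis, sperm, intestine and neurons differed in level between the RNAi groups. The 12 germline and oocyte markers summed to 81861 to 92663 normalized reads in the numr-1/2(RNAi) libraries and 39434 to 46022 with cadmium, against 29792 to 43101 and 10177 to 13641 in control(RNAi). The 6 epidermal and moulting markers with recovered reads were lower in numr-1/2(RNAi), at 17832 to 20818 without and 40413 to 51217 with cadmium, than in control(RNAi), whose ranges of 82570 to 117172 without and 76784 to 90680 with cadmium overlapped. The remaining marker of that list, col-19, a collagen of the adult cuticle, had group values of 57620 in numr-1/2(RNAi) and 23859 with cadmium, against 10223 and 4315 in control(RNAi). Without cadmium the sperm markers summed to 223930 to 285401 in numr-1/2(RNAi), against 51187 to 143822 in control(RNAi). The 6 intestine and yolk markers with recovered reads summed to 66653 to 96423, against 19173 to 25673. Neuronal sums were lower (8428.5 to 9776 against 11311 to 12195), and the muscle sums overlapped. No germline or epidermal marker was at 0 in any group, and the part of stage in the results below was not tested.

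The targeted genes checked the labels only in part. The minus-strand copy (WBGene00017270, chromosome III, 7362619 to 7363464 in WBcel235) had 2.06 ± 1.78 normalized reads without cadmium (SD, n = 3) and 51.3 ± 11.6 with it. The plus-strand copy (WBGene00017267, 7364385 to 7365230) had 30.5 ± 12.6 and 56.8 ± 10.6. Both annotations carry the symbol numr-1 and the copies have the same sequence, so reads may be split between them arbitrarily and their sum is the safer value. The sum was 29.5, 47.8 and 20.5 in the libraries without cadmium and 96.9, 94.7 and 133 with it, a 3.32-fold difference of the means. In control(RNAi) it was 22.5, 12.2 and 46.8 without cadmium and 332, 541 and 239.5 with it, a 13.6-fold difference. Without cadmium the knockdown and control libraries overlapped, so a lowered transcript is not visible there, while with cadmium the highest knockdown library lay below the lowest control library. Each copy rose with cadmium in numr-1/2(RNAi), the minus-strand copy by a log2 of 4.73 (adjusted p = 0.00051) and the plus-strand copy by 0.94 (adjusted p = 0.042). The second call was lost in 5 of the 6 fits that left out a library, all but that without numr-1/2(RNAi) replicate 2, with an adjusted p of 0.051 to 0.13. The difference between the 2 responses passed the test for neither copy (adjusted p = 0.82 and 0.091).

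Cadmium moved a large share of the transcriptome in numr-1/2(RNAi) worms. Of 15713 genes tested with limma on the recovered reads, 3136 (20%) rose and 3115 (19.8%) fell at an adjusted p below 0.05, and 1363 (8.67%) rose and 697 (4.44%) fell by at least 2-fold. These percentages are the background for the counts of genes that rose or fell with cadmium in every list below. Fits that left out a library kept the minimum of 10 reads in 3 libraries. A gene with such reads in a single group was not tested when a library of that group was left out. Those fits held 15339 to 15579 genes, so part of a lower count in them can come from this minimum. The libraries of the groups did not overlap for 51% of all genes tested. By the deposited group values alone, 1616 of 16181 genes (9.99%) were at least 2-fold higher and 837 (5.17%) at least 2-fold lower.

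The metal response list of 16 genes includes both copies of the targeted pair. Of these genes, 14 could be tested, of which 9 rose (5 of them at least 2-fold) and 1 fell. Both copies are among the 9, and the median log2 fold change was 0.54 against 0.02 over all genes tested. The cdr-1 gene (WBGene00000412, chromosome V, 15921309 to 15922820), which encodes a lysosomal protein needed for cadmium resistance, went from 143, 152 and 201 to 11758, 13198 and 12226 normalized reads (75-fold, log2 fold change 6.24 ± 0.14, adjusted p = 6.4e-09). Its relative cdr-4 went from 1202, 1333 and 1316 to 11558, 12653 and 12877 (9.63-fold, adjusted p = 1.7e-08). The metallothionein gene mtl-1 (WBGene00003473, chromosome V, 6691371 to 6691863) went from 291, 195 and 308 to 3769, 4155 and 5224 (16.6-fold, adjusted p = 3.0e-07). For all 3 genes every cadmium library was far above every library without cadmium.

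The other metallothionein gene, mtl-2, was not higher with cadmium in its group values. Its libraries without cadmium were already at 33469, 25569.5 and 35269, and the group value with cadmium, for which single libraries could not be recovered, was 25464 against 31436 without. In control(RNAi) the corresponding group values were 12938 and 29668, 2.29-fold higher (no test). Among the transporters, cdf-2, a zinc transporter of intestinal storage granules, rose from 839, 843 and 979 to 1804, 1986 and 2027 (2.19-fold, adjusted p = 1.4e-05), and ttm-1, an intestinal zinc exporter, rose from 600.4, 638 and 723 to 912, 906 and 1009 (1.44-fold, adjusted p = 0.0023). Phytochelatin synthase, pcs-1, which makes a thiol peptide that binds cadmium, rose by a log2 of 0.37 (adjusted p = 0.012). The cdr-6 gene fell from 1416, 1448 and 1699 to 914, 918 and 979 (1.62-fold, adjusted p = 3.1e-04). The members that did not pass were cdf-1, cdr-2, hmt-1 (the transporter of phytochelatin complexes) and hizr-1 (the zinc-sensing nuclear receptor), with log2 fold changes of -0.05, 0.03, -0.18 and 0.14. cdr-7 rose by a log2 of 0.55 (adjusted p = 0.014). The calls of pcs-1 and cdr-7 were lost without numr-1/2(RNAi) replicate 1 (adjusted p = 0.052 and 0.054) and without numr-1/2(RNAi) with cadmium replicate 2 (0.056 and 0.0504). Without the latter library 5 members of the list rose. In that fit the plus-strand copy of numr-1/2 also lost its call, and the minus-strand copy had too few reads to be tested.

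**Figure D1:**
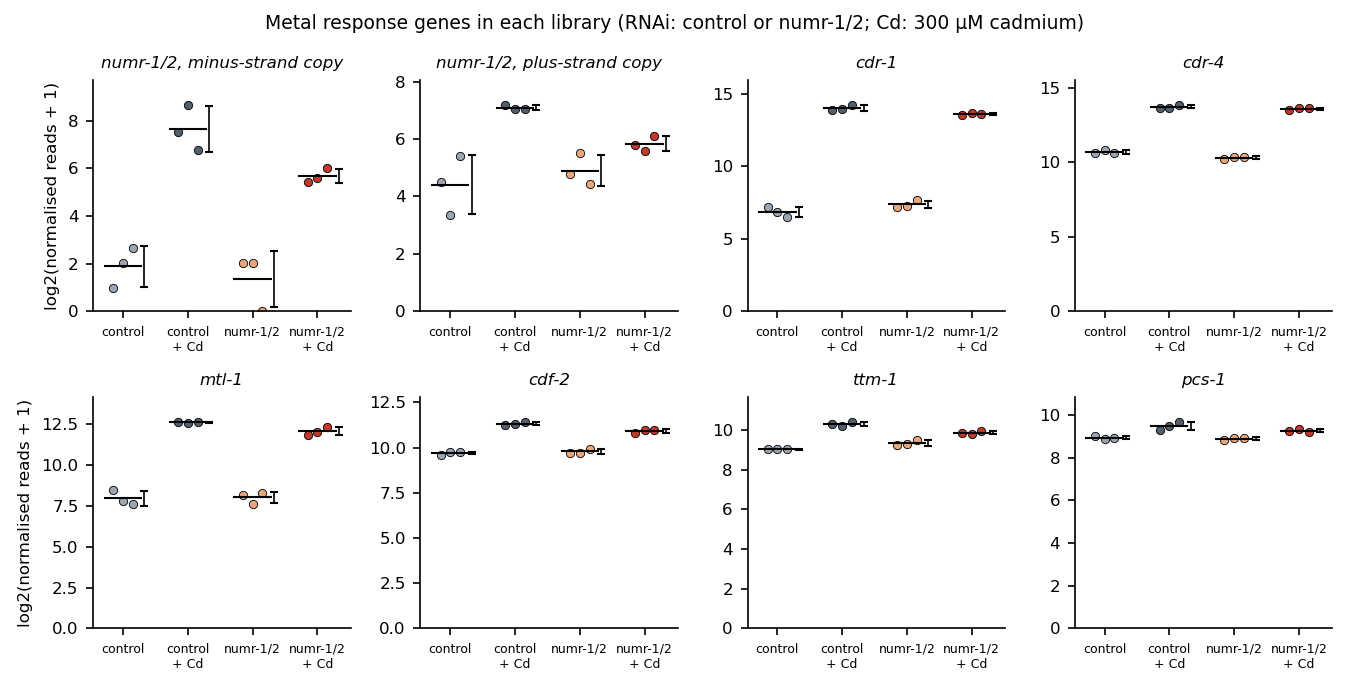
Normalized reads of 8 metal response genes in each library, as log2(value + 1) on the y axis, for the 2 control(RNAi) and the 2 numr-1/2(RNAi) groups (points, 3 libraries a group; line, mean; bar, SD). The cadmium libraries of numr-1/2(RNAi) lie above those without cadmium in all 8 panels, by the widest margin for cdr-1 (75.0-fold), and below the cadmium libraries of control(RNAi) for both copies of numr-1/2.

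Genes for conjugation and fatty acid import were among those with the highest ratios. comt-4, a catechol-O-methyltransferase homolog, rose from 4.06, 0 and 9.7 to 1736, 2071 and 2379 normalized reads (449-fold, adjusted p = 2.7e-05). The F-box gene fbxa-163 rose from 3.05, 10.4 and 14 to 1527, 1468 and 1781 (174-fold, adjusted p = 2.4e-06). The glutathione S-transferase gene gst-38 had 128, 110.1 and 144 without cadmium and a group value of 22825 with it (179-fold, no test). All 3 were low in every library without cadmium and high in the group with it. cpt-3, a carnitine palmitoyltransferase homolog of fatty acid import into mitochondria, rose from 63, 56.1 and 77.6 to 4185, 3705 and 4198 (61.4-fold), and clc-32, a claudin-like gene, rose from at most 4.16 reads to 135, 168 and 193 (96-fold). The 3 genes nhx-6, nhr-247 and C02E7.10 had no read in any numr-1/2(RNAi) library without cadmium and a group value of at least 100 with it. Against a floor of 3 reads per library, the sodium/proton exchanger gene nhx-6 (438, 436 and 290.5 with cadmium) was at least 124-fold higher, the nuclear hormone receptor gene nhr-247 at least 33.3-fold higher and C02E7.10 at least 36.1-fold higher.

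Detoxification lists shared this direction in part. Of 38 glutathione S-transferase genes tested, 21 rose and 6 fell, led after gst-38 by gst-19 (log2 3.96), gst-30 (3.43) and gst-24 (2.96), and gst-7 rose from 1636, 1851 and 2134 to 11814, 13111 and 13648 (6.86-fold). Of 63 cytochrome P450 genes, 25 rose and 14 fell, with cyp-13A3 at 4.64 and cyp-33C7 at 3.55 on the log2 scale. UDP-glucuronosyltransferases, which conjugate sugars to toxins, were divided, with 18 of 62 higher and 20 lower. Within that family ugt-18 rose by 3.56 (log2) and ugt-6 fell from 1018, 951 and 1168 to 46.7, 47.4 and 66.3 (19.6-fold, adjusted p = 3.7e-07). Of 38 ABC transporter genes 11 rose and 14 fell. The P-glycoprotein gene pgp-8 rose from 22.4, 18.7 and 16.2 to 853, 752 and 731 (40.8-fold) while pgp-14 fell from 3158, 2566 and 2123 to 751, 770.2 and 687 (3.55-fold). Of 30 genes of oxidative and glutathione defense 9 rose and 8 fell. The fallen members include gpx-7 and gpx-3, glutathione peroxidase homologs, with log2 fold changes of -2.04 and -1.77, and the risen ones sod-4, an extracellular superoxide dismutase (1.27).

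Chaperones of different compartments moved in different directions. Of 22 cytosolic heat shock genes, 10 rose and 5 fell. The small heat shock gene hsp-16.41 rose from 82.3, 67.5 and 93.8 to 2935, 3274 and 3520.1 normalized reads (39.9-fold, log2 fold change 5.32 ± 0.18, adjusted p = 5.6e-08), and hsp-16.2 rose from 94.5, 69.6 and 86.3 to 1033, 1162 and 1266 (13.8-fold, adjusted p = 3.4e-07). Every cadmium library was above every library without cadmium for both, although reads of the hsp-16 family are uncertain where its members are near-identical. In the endoplasmic reticulum, 6 of 13 genes of the unfolded protein response rose and 0 fell, with the BiP chaperone hsp-4 going from 14912, 15013 and 15287 to 24621, 24029.9 and 23735 (1.6-fold, adjusted p = 6.7e-05) and the choline kinase ckb-2 at a log2 of 1.07. In mitochondria, 6 of 10 chaperones and proteases fell and 0 rose. The chaperonin hsp-60 fell from 18068, 19041 and 17614 to 7763, 7649.5 and 7602 (2.38-fold, adjusted p = 1.8e-06) and the mitochondrial HSP70 hsp-6 fell from 24632, 24423 and 19836 to 15646, 15606 and 13191 (1.55-fold, adjusted p = 0.0014). Of 33 proteasome subunit genes 3 fell and 0 rose (1 fell without numr-1/2(RNAi) replicate 2, and 2 without any other single library), with a median log2 fold change of -0.11.

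Infection and damage genes rose in larger shares than the background. All 6 testable irg genes, named for their response to infection, rose. irg-3 went from 166, 192 and 292 to 1435, 1479 and 1669.9 (7.05-fold, adjusted p = 1.7e-06) and irg-4, a gene of the p38 MAP kinase immune pathway, from 376, 451 and 444 to 1788, 2028 and 2126 (4.68-fold, adjusted p = 5.8e-07). Of 22 pals genes, the family that includes regulators and reporters of the response to intracellular pathogens, 13 rose and 0 fell, and pals-6 went from 45.7, 26 and 43.1 to 209, 197 and 211 (5.37-fold, adjusted p = 2.9e-05). Without numr-1/2(RNAi) with cadmium replicate 1, 8 pals genes rose, in a fit that did not test genes with enough reads in the cadmium group alone. The ubiquitin ligase genes of that response moved with them, since cul-6, skr-3 and skr-4 rose by 0.84, 0.90 and 1.07 (log2), 3 of 4 members tested. Of the fbxa genes tested 47 (39.5%) rose and 6 fell, of 130 C-type lectin genes 50 rose and 24 fell, and of 11 epidermal antimicrobial peptide genes 8 rose and 1 fell, with nlp-31 at 2.30 and nlp-29 at 1.17. For lysozymes and saposin-like proteins the split was 15 higher and 9 lower of 35. Nuclear hormone receptor genes rose more often than they fell (69 and 12 of 191), as did neuropeptide and insulin-like genes (29 and 3 of 58), where the insulin-like gene ins-7 reached a log2 fold change of 2.40. Without numr-1/2(RNAi) with cadmium replicate 2, a fit with the same limit, the number that rose was 44 for the receptors and 19 for the neuropeptides. Without numr-1/2(RNAi) replicate 1 it was 18 for the neuropeptides, and 0 to 3 of the neuropeptide genes fell when single libraries were left out.

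**Figure D2:**
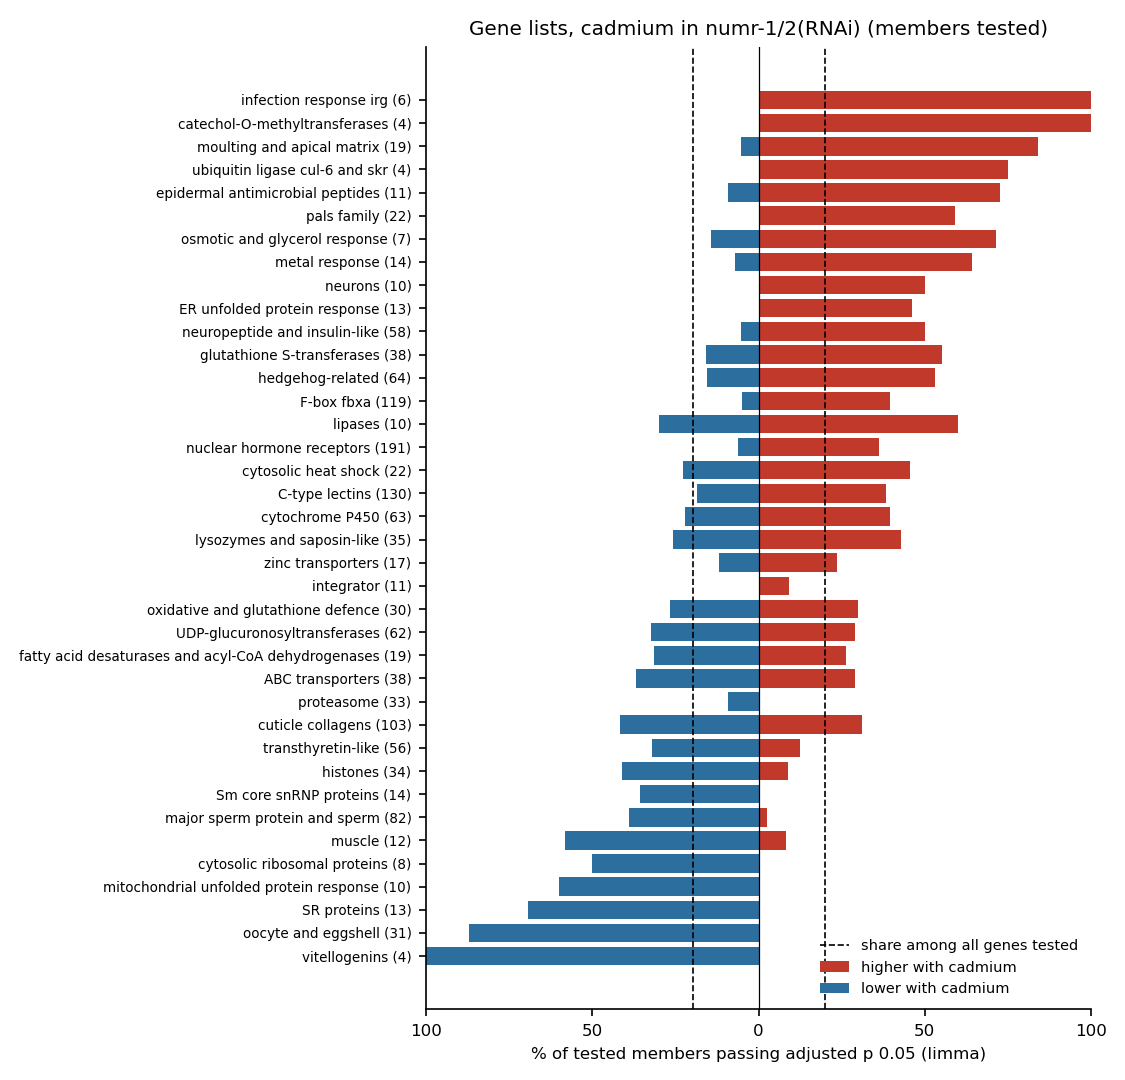
Share of the tested members of each gene list (rows, members tested in parentheses) that rose (bars to the right) or fell (bars to the left) with cadmium in numr-1/2(RNAi) at a limma adjusted p below 0.05, in percent. The dashed lines mark the shares among all 15713 genes, 20% and 19.8%, and the lists range from irg genes (6 of 6 higher) to vitellogenins (4 of 4 lower).

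Yolk and oocyte genes fell. All 4 vitellogenin genes that could be tested fell, which encode the yolk proteins that the intestine supplies to oocytes. vit-3 went from 11919, 10427 and 9321 to 448, 354 and 469.9 normalized reads (24.9-fold, log2 fold change -4.64 ± 0.13, adjusted p = 3.0e-08), vit-4 from 14923, 13077 and 10844 to 1168, 967 and 937 (12.6-fold, adjusted p = 8.3e-08) and vit-5 from 50052, 42524 and 31381 to 6897, 5905 and 4693 (7.09-fold, adjusted p = 2.2e-06). No cadmium library reached the range of the libraries without cadmium in any of them. The vitellogenins share long stretches of sequence, so the split of reads among vit-3, vit-4 and vit-5 is uncertain, and vit-2 and vit-6 were lower by 4.75-fold and 5.33-fold in their group values (no test). Of 31 oocyte and eggshell genes 27 fell and 0 rose, 13 of them at least 2-fold, with a median log2 fold change of -0.93. puf-5, an RNA-binding regulator of oogenesis, fell from 8161, 8698 and 7702 to 3262, 3495 and 3126 (2.49-fold, adjusted p = 2.6e-06) and oma-2, a regulator of oocyte maturation, from 4337, 4999.8 and 4298 to 1435, 1743 and 1419 (2.97-fold, adjusted p = 3.5e-06). The germline granule genes meg-1 and meg-2 had log2 fold changes of -1.66 and -1.46. Of 82 sperm genes 32 fell and 2 rose, with a median of -0.30, and of 34 histone genes 14 fell and 3 rose, both in families whose near-identical members share reads. The count for sperm genes rests on single libraries, since 6 fell without numr-1/2(RNAi) with cadmium replicate 2, 9 without replicate 1 of that group, and 13 and 16 without numr-1/2(RNAi) replicates 1 and 3. In the same libraries the germline and oocyte markers summed to 81861 to 92663 without and 39434 to 46022 with cadmium, and their part in these falls was not tested. Those markers include puf-5 and oma-2, so their sum is not a measure apart from the oocyte genes.

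Other large falls were in single genes and the nspb family. acdh-2, an acyl-CoA dehydrogenase homolog, fell from 592, 615 and 539 to 15.3, 11.6 and 14.6 normalized reads (42.1-fold, adjusted p = 7.8e-07). F48G7.5 fell from 818, 825 and 966 to 14.4, 27.1 and 11.7 (49.1-fold) and nspb-2, of the nematode-specific peptide family, from 365, 249 and 323 to 0, 1.93 and 8.77. These were among the lowest ratios of all genes with a symbol, together with nspb-1, nspb-3, fipr-11, C27D9.2 and the hedgehog-related gene grl-27. Of the muscle genes 7 of 12 fell and 1 rose, with myo-2, the pharyngeal myosin, at -0.99 and the troponin gene tnt-4 at -0.95 (log2). Of 10 neuronal genes 5 rose and 0 fell, led by ric-19 at 1.07.

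Lists of RNA processing genes differed. Of 13 genes on the SR protein list 9 fell and 0 rose, none by 2-fold, with a median log2 fold change of -0.31. rsp-4 fell from 3039.8, 3342 and 3461 to 1812, 2006 and 2265 normalized reads (1.62-fold, adjusted p = 4.3e-04), and rsp-6 and rsp-1 had log2 fold changes of -0.56 and -0.55. Of 14 genes for Sm and Lsm proteins, the rings that bind U-rich RNA in the spliceosome and in mRNA decay, 5 fell and 0 rose, and lsm-1 fell from 1137, 1245 and 1436 to 732, 690 and 735 (1.77-fold, adjusted p = 1.9e-04). Without numr-1/2(RNAi) with cadmium replicate 1, 3 of the 14 fell. Of 11 integrator subunit genes only ints-5 passed the test, with a log2 of 0.56 (adjusted p = 0.0041).

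Genes of the apical matrix rose. The moulting and apical matrix list, proteins that line the outer surface of the epidermis before a new cuticle is laid down, had 16 of 19 members higher and 1 lower, 10 at least 2-fold higher, with a median log2 fold change of 1.43. noah-1, a zona pellucida domain matrix protein, rose from 2416, 2719 and 2121 to 8371, 7344 and 6928 normalized reads (3.12-fold, log2 fold change 1.64 ± 0.11, adjusted p = 3.5e-06), and mlt-11, a protease inhibitor homolog needed for moulting, from 3962, 3957 and 2471 to 14111, 10826 and 9296 (3.29-fold, adjusted p = 8.9e-05). fbn-1, a fibrillin-like matrix protein, rose from 273, 361 and 138 to 1116, 1134 and 823 (3.98-fold, adjusted p = 2.2e-04). All 3 were higher in every cadmium library than in any library without it. dpy-6, a mucin-like protein, and let-653, a matrix protein of narrow tubes, rose 5.27-fold and 3.37-fold. Of 64 hedgehog-related and patched-related genes 34 rose and 10 fell, among them qua-1 (from 5574, 5225 and 5341 to 18789, 13886 and 14124, adjusted p = 8.1e-06), ptr-10 (4.16-fold) and ptr-17 (log2 1.87). Cuticle collagens went both ways, with 32 of 103 higher and 43 lower. The epidermal and moulting markers of the same libraries, 5 of which are on the moulting list, summed to 17832 to 20818 without and 40413 to 51217 with cadmium.

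The cadmium responses of the 2 RNAi groups, which share no library, were alike in size and broadly in direction. Over 15315 genes tested in both, the 2 log2 fold changes had a Pearson correlation of 0.744 and a Spearman correlation of 0.630 across genes, which are not independent, with a median absolute value of 0.336 in each. In control(RNAi), 1740 (11.1%) of 15717 genes rose and 1736 (11%) fell, and the median standard error of a gene was 0.190 there against 0.140 in numr-1/2(RNAi). Of genes tested in both, 1292 rose in both, which was 41.8% of those that rose in numr-1/2(RNAi) and 75.5% of those that rose in control(RNAi). For genes that fell, 1360 did so in both (44.7% and 79.4%). Opposite calls were made for 20 genes that rose and 35 that fell in numr-1/2(RNAi).

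A difference between responses was called by the interaction of RNAi and cadmium in 12 libraries. The 2 RNAi groups were normalized in separate tables, so this tests a difference of changes within tables. Of 16343 genes, 492 (3.01%) had a higher cadmium log2 fold change in the knockdown than in control(RNAi), and for 331 (2.03%) it was lower. These shares are the background for every count of called differences in a gene list or family below. Without the control(RNAi) cadmium library that stood apart the counts were 594 and 401. Leaving out other libraries gave as few as 332 and 206, the first without numr-1/2(RNAi) replicate 2 and the second without numr-1/2(RNAi) with cadmium replicate 1. By group values alone, 1016 of 16519 genes had a response at least 2-fold higher and 711 at least 2-fold lower. Of the 492 genes, 283 rose in numr-1/2(RNAi) with no call in control(RNAi), 71 rose in both, 57 fell only in control(RNAi), 55 fell in both and 20 rose in numr-1/2(RNAi) but fell in control(RNAi). Of the 331 genes, 131 fell in numr-1/2(RNAi) with no call in control(RNAi), 83 rose only in control(RNAi), 43 rose in both, 35 fell in numr-1/2(RNAi) but rose in control(RNAi) and 33 fell in both.

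**Figure D3:**
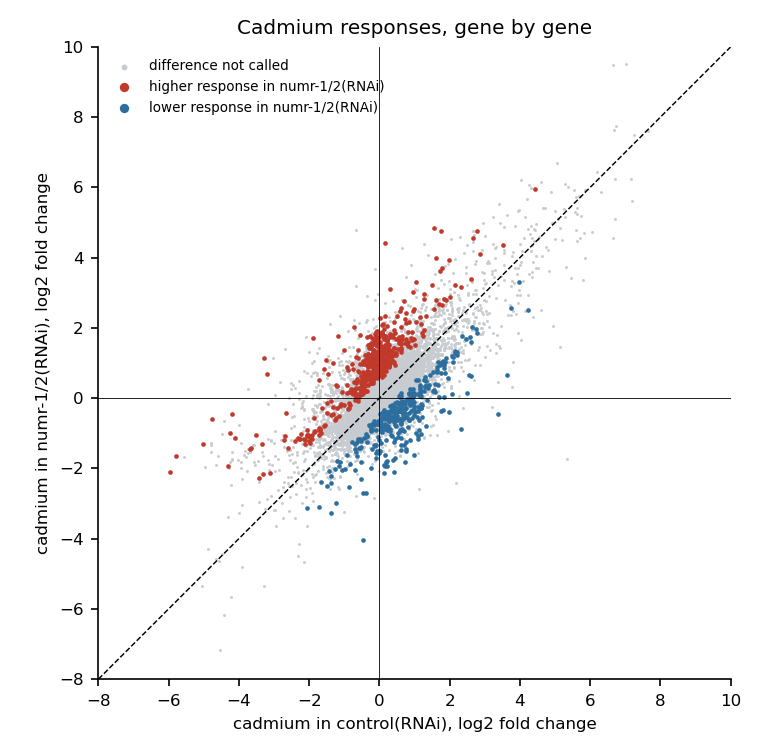
Cadmium log2 fold change of each gene in numr-1/2(RNAi) (y axis) against control(RNAi) (x axis), with the diagonal of equal responses. Genes with a called difference are red (492 in the full test, higher response in numr-1/2(RNAi)) or blue (331, lower response), and 283 of the red genes rose in numr-1/2(RNAi) with no call in control(RNAi).

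Moulting genes responded more in numr-1/2(RNAi). Of 19 tested, 14 responded more in numr-1/2(RNAi) and 0 less, against 3.01% and 2.03% of all genes. Leaving out single libraries gave 11 to 14. In control(RNAi) only 1 member rose and 1 fell. For noah-1 the control libraries went from 14628, 20619 and 14603 to 14767, 14569.8 and 15325 normalized reads, with a difference in log2 response of 1.78 ± 0.19, adjusted p = 1.3e-04. For mlt-11 they went from 22182, 43381 and 25149.6 to 19574, 20939 and 28999, with a difference of 2.07 ± 0.36, adjusted p = 0.0037. Without cadmium both genes were lower in every numr-1/2(RNAi) library than in any control library, and with cadmium they were still lower, so that the groups lay closer together with cadmium. let-653 (1.46 ± 0.23, adjusted p = 0.0022), fbn-1 (1.99 ± 0.50, adjusted p = 0.035) and dpy-6 (1.68 ± 0.43, adjusted p = 0.038) differed in the same direction, but the calls of fbn-1 and dpy-6 were each lost in 7 of the 12 fits that left out a library, with an adjusted p of up to 0.11 and 0.12 (both without numr-1/2(RNAi) replicate 3). Of 68 hedgehog-related genes 19 had a higher and 4 a lower response, the latter count being 2 without control(RNAi) replicate 3, control(RNAi) with cadmium replicate 1, numr-1/2(RNAi) replicate 3 or numr-1/2(RNAi) with cadmium replicate 2, with qua-1 differing by 1.80 ± 0.22, adjusted p = 3.2e-04, and ptr-10 by 1.85 ± 0.29, adjusted p = 0.002. Of 110 cuticle collagens 17 had a higher and 10 a lower response, the latter count being 7 to 15 when single libraries were left out. Among genes singled out after their values were seen, the cuticle collagen gene dpy-10 went from 911, 1067 and 982 to 3188, 3403 and 3549 in numr-1/2(RNAi) and from 7264, 7842 and 6182 to 6839.9, 6318 and 6777 in control(RNAi), a difference of 1.87 ± 0.15, adjusted p = 2.2e-05. The collagen genes col-142 (-1.47 ± 0.16, adjusted p = 1.2e-04) and col-147 (-1.49 ± 0.17, adjusted p = 1.7e-04) differed the other way. The C-type lectin gene clec-70 went from 101, 135 and 100.3 to 938, 914 and 1013 and from 854, 955 and 899 to 1045, 1206 and 1103, a difference of 2.79 ± 0.18, adjusted p = 1.0e-05.

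A lower level without cadmium was common among the 492 genes. Without cadmium, 387 of them (78.7%) had every numr-1/2(RNAi) library below every control(RNAi) library, against 20.5% of all genes tested. Their median log2 ratio of numr-1/2(RNAi) to control(RNAi) was -1.18 without cadmium and -0.17 with it. Of the 331 genes, 229 (69.2%) had every numr-1/2(RNAi) library above, against 31.4% of all genes, and their median ratio went from 0.53 to -0.49. The ratios without cadmium enter the tested difference itself, so these counts describe the called genes and test nothing.

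Among genes with a lower response in numr-1/2(RNAi) were members of the osmotic response. hmit-1.1, a proton-coupled myo-inositol transporter of the osmotic response, went from 564, 632 and 497 to 3212, 3036 and 3326 in numr-1/2(RNAi) and from 274, 248 and 209.7 to 4375, 4341 and 5146 in control(RNAi), a difference of -1.74 ± 0.18, adjusted p = 1.1e-04. gpdh-1, which makes glycerol, the osmolyte of the worm, rose 2.24-fold and 4.25-fold (difference -0.93 ± 0.18, adjusted p = 0.0077). Their negative regulators osm-8 and osr-1 differed the other way, by 1.11 ± 0.23, adjusted p = 0.011, and by 1.45 ± 0.16, adjusted p = 1.4e-04. Of the 14 metal response genes in the test, ttm-1 alone had a called difference, with rises of 1.44-fold and 2.42-fold (difference -0.74 ± 0.14, adjusted p = 0.0069). Among all genes tested, 2.03% had a lower response, so a single call does not show that the other members responded equally. The median difference over the 14 genes was -0.40, against 0.05 over all genes. Both copies of the targeted pair are among the 14, so this median is not one of the untargeted members alone. For cdr-1 the difference was -0.94 ± 0.27, adjusted p = 0.062, and for cdf-2 -0.50 ± 0.14, adjusted p = 0.053. The fungus-induced-related gene fipr-8 fell from 411, 320 and 400 to 10.8, 22.2 and 48.7 in numr-1/2(RNAi) and was 55.4, 63.1 and 46.8 and then 39.5, 33.1 and 48.7 in control(RNAi), a difference of -3.59 ± 0.53, adjusted p = 0.0013. gpx-3, pgp-14 and cpg-18, a chondroitin proteoglycan gene, also fell in numr-1/2(RNAi), with differences of -2.17, -2.01 and -2.51.

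A few single genes had larger rises in numr-1/2(RNAi). C50F7.5 went from 94.5, 95.6 and 80.9 to 2261, 2886 and 2276 normalized reads there and from 453, 394 and 179 to 1172, 1099.8 and 979.9 in control(RNAi), a difference of 3.01 ± 0.41, adjusted p = 7.6e-04. The saposin-like gene spp-20 went from 2.03, 2.08 and 16.2 to 101, 93.7 and 107 and from 36.6, 21.4 and 18.1 to 30.8, 29.2 and 22.9, a difference of 4.26 ± 0.75, adjusted p = 0.0041. cpt-3 rose 61.4-fold and 21.6-fold (difference 1.53 ± 0.28, adjusted p = 0.0058). C50E3.13 fell in both, from 139, 193 and 146 to 55.6, 45.4 and 49.7 in numr-1/2(RNAi) and from 53.5, 39.7 and 44.7 to 1.93, 0 and 0 in control(RNAi), a difference of 4.15 ± 0.88, adjusted p = 0.014, which was lost without control(RNAi) with cadmium replicate 2 (3.76, adjusted p = 0.066). Of the 31 oocyte and eggshell genes, 8 fell less in numr-1/2(RNAi) and 0 fell more. Leaving out single libraries gave 5 to 14 such genes, the highest count without control(RNAi) replicate 1 and the lowest without control(RNAi) replicate 3, control(RNAi) with cadmium replicate 1, numr-1/2(RNAi) replicate 3 or numr-1/2(RNAi) with cadmium replicate 2. B0393.8, with 1 of the 8 lowest differences by group values, went from 586, 428 and 6.47 to 11.7, 10.6 and 69.2 and did not pass the test, since its libraries disagreed within each group.

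**Figure D4:**
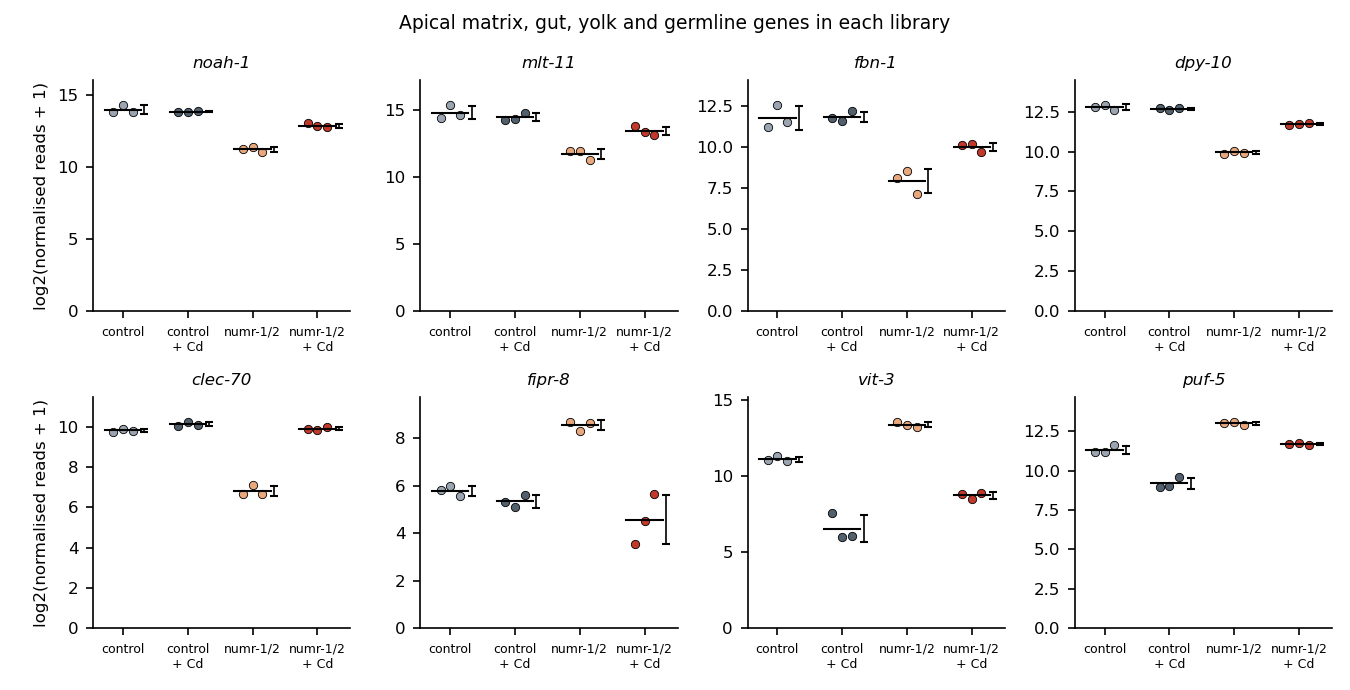
Normalized reads of 8 genes in each library, as log2(value + 1), for the 4 groups (points, 3 libraries a group; line, mean; bar, SD). The 4 upper genes and clec-70 were lowest in numr-1/2(RNAi) without cadmium and rose there, fipr-8 was highest there and fell, and vit-3 and puf-5 fell with cadmium in both RNAi groups.

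Splicing was measured as inclusion and skipping reads per library at annotated and predicted alternative events. The inclusion level is the length-corrected share, in percent, of reads for the longer form, or for mutually exclusive exons the first exon. Of 2191 events with at least 10 reads in each of the 6 libraries, 103 (4.7%) in 94 genes changed with cadmium in numr-1/2(RNAi) by a quasi-binomial fit at an adjusted p below 0.05, 30 upward and 73 downward, and the libraries of the groups did not overlap in 16.3% of events. By type, 48 of 410 alternative 3′ splice sites (A3SS) changed, 35 of 1304 skipped exons (SE), 10 of 197 mutually exclusive exons (MXE), 5 of 166 alternative 5′ splice sites (A5SS) and 5 of 114 retained introns (RI). The choice of method matters here, since a limma fit to the logarithm of inclusion over skipping reads called 0 events, with 221 at an unadjusted p below 0.05 against 357 in the quasi-binomial fit. Leaving out numr-1/2(RNAi) replicate 2 gave 49 events and leaving out numr-1/2(RNAi) with cadmium replicate 1 gave 59, with libraries numbered by their place in the deposited cells, which cannot be tied to the numbers used for expression.

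The 3′ splice sites moved in one direction. A 3′ splice site ends an intron, and where a pair of sites competes, the upstream one gives the longer exon, so a falling level means more use of the downstream site. Of the 48 events called, 46 fell and 2 rose, with a median absolute change of 13.5 points, and over all 410 events the level fell in 296 with a median of -3.66 points. All 48 called events had sites at most 18 bases apart, 48 of 359 such events against 0 of 51 with sites further apart. In R02F2.1 (chromosome III, the 6 bases from 5505248 to 5505253) the share of the upstream site went from 38.3, 35.9 and 36.7% to 15.9, 12.8 and 10.9% (-23.8 points, adjusted p = 3.7e-10). In dab-1, the Disabled adaptor protein of endocytosis, the level went from 40.9, 48.3 and 42.6% to 17.6, 17.3 and 22.2% (-24.9 points, adjusted p = 6.3e-07), and in the DREAM complex gene lin-9 from 62.6, 61.5 and 53.6% to 21.3, 48.3 and 23% (-28.3 points, adjusted p = 0.0058). The groups did not overlap in any of the 3 genes, which the rule for naming called events required. M4.1 went from 69.2, 78.9 and 82.8% to 55.2, 57.4 and 52.8% (-21.9 points, adjusted p = 0.0039) and wdr-48 from 87.6, 81 and 68.8% to 48.2, 56.7 and 45.4% (-29 points, adjusted p = 0.017), while the cdka-1 event, with as few as 13 reads in a library, went from 90.1, 88.3 and 63% to 40.8, 66.9 and 92.4% and did not pass (adjusted p = 0.66).

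Control(RNAi) worms shifted the same way. Of 370 A3SS events tested there, 280 fell with cadmium, with a median of -5.12 points, and all 27 called events fell. The median level over the 370 events was 34.1 to 37.4% in the control(RNAi) libraries, 22 to 26.8% in control(RNAi) with cadmium, 47.2 to 48% in numr-1/2(RNAi) and 39.5 to 41.3% in numr-1/2(RNAi) with cadmium. The 4 groups did not overlap, and the order of their medians was that of the medians of the summed germline and oocyte markers, whose part in the result was not tested. R02F2.1 went from 19.8, 16.3 and 17.4% to 6.28, 9.26 and 7.92% in control(RNAi), and dab-1 from 15.3, 21.4 and 17.9% to 5.9, 5.94 and 7.48%.

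Exons outside the A3SS class went both ways. Of the 35 skipped exons called, 22 were included more and 13 less. A 165 base exon of Y43F8B.3 (chromosome V, 19505895 to 19506059) went from 8.89, 9.8 and 9.87% to 59.9, 67.9 and 50.5% (49.9 points, adjusted p = 2.2e-05), and a second exon of the same gene, of 414 bases, rose with it (43.7 points, adjusted p = 5.5e-05). In control(RNAi) the first exon was at 46.9 to 95.0% without cadmium. The 39 base exon of F07A11.2 (chromosome II, 11594594 to 11594632) went from 15.5, 16.5 and 20.3% to 57.9, 63.6 and 53.7% (40.9 points, adjusted p = 6.2e-06). The inclusion of a 126 base exon of cdf-1, a zinc exporter gene whose expression did not pass the test, fell from 63.9, 76.9 and 59.9% to 23, 25.9 and 48.3% (-34.5 points, adjusted p = 0.0087). ncx-2, a sodium/calcium exchanger, gained a 159 base exon from 39.8, 59.2 and 49.3% to 78.8, 81.7 and 77.3% (29.9 points, adjusted p = 0.0093), and epg-8, an autophagy gene, a 136 base exon from 21.8, 22 and 29.1% to 49.6, 47.1 and 47.7% (23.8 points, adjusted p = 8.2e-05). In fbl-1, the fibulin of basement membranes, the first of a pair of mutually exclusive exons rose from 25.5, 28.7 and 18.4% to 42.2, 58.8 and 69.7% (32.7 points, adjusted p = 8.3e-04). The muscle alpha-actinin gene atn-1 shifted its exclusive exons from 74.4, 79.6 and 72.5% to 63.8, 63.7 and 68.7% (-10.1 points, adjusted p = 0.018). Of 114 retained introns 5 were called, the largest change being in C16A11.4, from 63.2, 62.9 and 70.6% to 56, 47.8 and 44.4% (-16.2 points, adjusted p = 0.019).

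**Figure D5:**
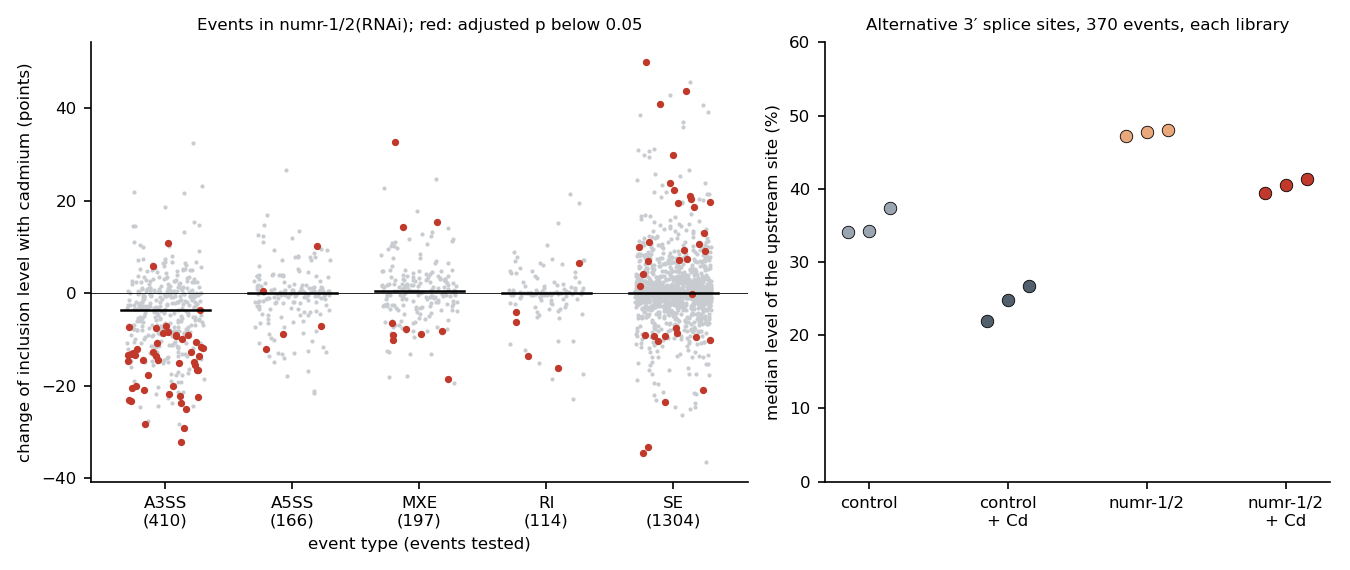
Left, change of the inclusion level with cadmium in numr-1/2(RNAi), in percentage points, for each event by type (points; red, adjusted p below 0.05; bar, median of the type). Right, median level of the upstream 3′ splice site over 370 events in each library, drawn from the lowest to the highest of each group, which ranges from 47.2 to 48% in numr-1/2(RNAi) and from 39.5 to 41.3% with cadmium.

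No difference between the cadmium effects of the 2 RNAi groups on splicing passed the test. Of 1526 events in the 12 libraries, 0 had an adjusted p below 0.05 for the interaction, 117 had an unadjusted p below 0.05, and limma on the log2 ratio called 0 with 86. The lowest adjusted p, 0.071, belonged to the A3SS event of Y52B11A.2, which went from 67.5, 78.9 and 70.9% to 62.7, 64.2 and 63.9% in numr-1/2(RNAi) and from 65.5, 69.4 and 63.9% to 0, 13.8 and 16.1% in control(RNAi). Of the 103 events called in numr-1/2(RNAi), 97 could be tested in control(RNAi), where 45 of all 1968 events tested were called. Among the 97 events, 88 moved in the same direction there and 22 were also called, all in the same direction. At 10 or more reads per library this does not show that the effects were equal. For ncx-2 the change was 29.9 points in numr-1/2(RNAi) and 2.15 points in control(RNAi), with an unadjusted p of 0.0028 and an adjusted p of 0.31 for the difference.

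Expression of genes with a called splicing event was compared with the background. Of the 94 genes with a called event, 88 were tested for expression, where 11 rose and 16 fell, against a background of 20% and 19.8%. Reads over splicing events gave a second measure of expression for 1481 genes, of which 8.04% were higher and 66 (4.46%) lower by limma. Its log2 fold changes correlated with those of the recovered gene reads at 0.909 over 1459 genes, which come from the same libraries, and all 182 genes called by the event reads and also tested by the gene reads had the same sign in both. The highest were dct-17, F15B9.6 and C08E8.4, with log2 fold changes of 3.94, 3.48 and 3.47, and the lowest was chca-1 at -3.06. For the difference between the responses, 9 genes had a higher and 1 a lower response in numr-1/2(RNAi) of 1068 tested, among them noah-1 (1.51 ± 0.19, adjusted p = 0.0012), let-653 (1.82 ± 0.37, adjusted p = 0.036) and, singled out after its value was seen, nas-37, a protease of moulting (1.21 ± 0.23, adjusted p = 0.027). Without control(RNAi) replicate 3 only 1 gene was called.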

How the data were processed

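RNA of whole worms was sequenced as oligo(dT) libraries, 3 in each of the 6 groups of the series. The authors aligned reads with HISAT2 2.1.0 to a genome of the worm, counted them per gene with HTSeq 0.6.1, tested expression with DEGSeq and splicing with rMATS. The deposited expression tables give 1 value per gene and group, a signal that is the mean of 3 libraries scaled by the authors, and the deposited splicing tables give inclusion and skipping read counts, with the inclusion level as a fraction, for each of 3 libraries in 1 cell, with form lengths. Columns holding the authors' log2 fold changes, p-values and false discovery rates were not used. Per the file headers and labels, the build is not named, and 94.9% of the exon ends of the splicing tables lie on exon ends of WBcel235, whose coordinates are given.

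Each deposited group value was decomposed into whole reads of 3 libraries times 3 scaling steps common to all genes, which left 0 unsolved genes in numr-1/2(RNAi) and in control(RNAi), 249 in numr-1/2(RNAi) with cadmium and 217 in control(RNAi) with cadmium. Genes solved up to a value of 30000 in the groups without cadmium gave the same reads in every other table that held the group, a check not made for the cadmium groups. In the cadmium groups, values from 10000 to 30000 were solved only among splits with the share of each library inside a fixed window. For those genes the spread between libraries was therefore bounded in advance. A comparison of group values with no test was planned, and a test on the recovered reads was added after seeing the data. It used limma 3.58.1 with voom precision weights in R 4.3.3 on genes with at least 10 reads in 3 libraries, the library scaling of the authors and Benjamini-Hochberg adjustment over all genes tested, and the difference of responses was the interaction term over 12 libraries. Rows with no reads and genes with group values only were left out of tests.

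Splicing cells whose commas were lost were split where a single split gave the deposited levels (8293 of 22130 cell pairs, beside 9395 that kept them). Events with at least 10 reads in each library were tested by a quasi-binomial fit with dispersions moderated by limma. The reads over the event with the most reads of each gene were tested with limma. All 2705 events with counts in the 6 libraries, of which these are a part, held 861623 to 1146172 reads per library. The fits and the decomposition were tested on simulated data.

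Named genes were the targeted pair, the metal response list, the 10 highest and 10 lowest ratios among genes with a symbol and a value of at least 100, the 8 highest and 8 lowest differences of ratios, and up to 5 members per list. Named events were the 12 largest called changes, up to 4 more of each type and up to 6 by the interaction. The largest called changes and the further ones of each type were taken only from events whose libraries did not overlap between groups. The members, lists and rule were chosen with earlier results of these data known. Alternatives were other filters, scalings, thresholds and models and leaving out each library. Read counts without molecular identifiers are not counts of molecules.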

Additional observations from a re-analysis of the deposited data

Results flagged for a closer look

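Genes named above were picked out for a closer look where the cadmium response differed between numr-1/2(RNAi) and control(RNAi) by the limma interaction at an adjusted p below 0.05 over 16343 genes, and values are log2 responses in numr-1/2(RNAi) minus those in control(RNAi). Genes of the apical matrix and moulting on the higher side were noah-1 at 1.78, mlt-11 at 2.07, fbn-1 at 1.99, dpy-6 at 1.68, let-653 at 1.46, dpy-10 at 1.87 and nas-37 at 1.22. With them were the hedgehog- and patched-related genes qua-1 at 1.80, ptr-10 at 1.85 and ptr-17 at 0.96, the osmotic regulators osr-1 at 1.45 and osm-8 at 1.11, and the oocyte gene puf-5 at 0.81. Other genes on that side were spp-20 at 4.26, C50E3.13 at 4.15, C50F7.5 at 3.01, clec-70 at 2.79, cpt-3 at 1.53 and F15B9.6 at 0.79.

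Cuticle collagens were on both sides, dpy-10 on the higher and col-142 at -1.47 and col-147 at -1.49 on the lower. Also on the lower side were fipr-8 at -3.59, cpg-18 at -2.51, gpx-3 at -2.17, pgp-14 at -2.01, chca-1 at -1.08, tnt-4 at -1.03 and gpx-7 at -0.99. Stress genes that rose less in numr-1/2(RNAi) were hmit-1.1 at -1.74, gpdh-1 at -0.93, ckb-2 at -0.75 and ttm-1 at -0.74. Of the 12 fits that left out a library, the calls of puf-5 and ptr-17 were each lost in 9, those of dpy-6 and fbn-1 in 7, that of ckb-2 in 3, that of gpx-7 in 2 and those of tnt-4 and C50E3.13 in 1, and puf-5 was also lost under a trend in place of precision weights (adjusted p = 0.061).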

How the results depend on the processing

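Counts of genes by group value moved most with the filter and the fold. With any value above 0 in both groups, 2648 genes were at least 2-fold higher and 1493 lower, with a larger value of at least 100 the counts were 882 and 537, and at 4-fold 467 and 178, while centring, a pseudocount of 1 and a value above 0 in all 6 groups stayed within 1.5 times (1565 to 1701 higher, 779 to 809 lower). The limma counts on recovered reads stayed within 1.5 times under a trend, other read minimums and centring on the median gene. That median, taken over genes with a larger group value of at least 100, moved by -0.03 (log2). Without single libraries the counts were 2347 to 2914 higher and 2477 to 2980 lower, of 15339 to 15579 genes tested. Leaving out single libraries gave 332 to 594 genes with a higher and 206 to 401 with a lower response than in control(RNAi). Of 98 named genes called for cadmium in numr-1/2(RNAi), 92 were called in every alternative that tested them. Some of the 98 had too few reads to be tested in a part of the alternatives. Of 32 called differences, 24 were called in every alternative. No called gene or difference named above changed its direction.

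Splicing depended on the model and on the cells read. limma on the log2 ratio called 0 events, cells that kept their commas gave 7 of 910 events, and leaving out single libraries gave 49 to 109. Of 30227 cells that kept their commas, 0 had 3 digits after both commas, so that set holds events with fewer reads. Its median A3SS change was -5.14 points over 187 events, against -3.66 over all 410. A3SS events called downward were 25 to 44 without single libraries, 4 with kept commas only and 0 with limma, which had 64 downward and 6 upward at an unadjusted p below 0.05. Differences in splicing from control(RNAi) numbered 0 to 1. Reads over events gave 65 to 118 genes higher and 37 to 65 lower without single libraries, and the difference of responses 1 to 11 higher and 0 to 2 lower, with 3 lower when all events of a gene were summed. No paired analysis was possible because neither the recovered reads nor the splicing cells carry the replicate numbers of the labels. Depth limits genes and events with few reads. The causes of these changes were not tested.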

Other observations

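Gene families described after their values were seen add to the account. All 40 mrpl and 28 of 29 mrps genes tested, which encode proteins of the mitochondrial ribosome, fell with cadmium in numr-1/2(RNAi), with median log2 fold changes of -0.62 and -0.67, and the medians in control(RNAi) were -0.62 and -0.67. Of 20 vha genes, subunits of the vacuolar proton pump, 17 fell (median -0.59, control(RNAi) -0.33), of 13 cox genes of cytochrome c oxidase 11 fell (-0.50 and -0.10), and of 11 rpb genes of RNA polymerase II 9 fell (-0.41 and -0.13). None of these families had a called difference between the responses. Among all genes 3.01% had a higher and 2.03% a lower response, so the lack of a call in a small family does not show equal responses. Of 7 acox genes, peroxisomal acyl-CoA oxidases, 6 fell and 1 rose (median -1.22, control(RNAi) -0.91), and 1 had a higher response in numr-1/2(RNAi). All 10 nspb genes fell (median -3.35, control(RNAi) -2.98), and 3 had a lower response.

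Other families held called differences between the responses, against 3.01% of all genes with a higher and 2.03% with a lower response. All 7 lpr genes, lipocalins of the apical matrix, rose (median 1.53, control(RNAi) 0.00), and 5 had a higher response in numr-1/2(RNAi). Of 16 fipr genes 12 fell and 2 rose (median -1.49, control(RNAi) -0.02), and 9 had a lower response. Of 12 abu genes 9 fell and 2 rose (median -1.47, control(RNAi) -0.57), and among the 12 genes 5 had a lower response and 1 a higher one. Among 22 dpy genes 11 rose and 1 fell, and 8 had a higher response. The part of stage in these values was not tested.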
